A study of Xenopus tropicalis with 40 samples.

Results

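The small ribosomal subunit protein genes of the western clawed frog Xenopus tropicalis were examined for how many spliced forms each of them had in a catalogue of embryonic transcripts. They were found by symbol: a gene counted when a transcript on its own strand carried an rps symbol made of a number with an optional a, x or y, or the symbol rpsa, or LOC549476, which the RefSeq gene table for assembly UCB_Xtro_10.0 names rps14. This gave 27 genes with 531 transcripts, of 8329 annotated genes with a sense transcript among the gene models. All 27 names matched the RefSeq table, and 2 further RefSeq symbols of the same pattern had no model under their names. Counts and medians cover all 27 genes, and single values are given for 24 of them.

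Polyadenylated RNA was taken from whole embryos of outbred frogs at 23 stages, from the 2-cell embryo to the tadpole of stages 44 to 45. There were 40 libraries, 16 from a first clutch and 24 from a second. The authors deposited 1 assembly pooled over these libraries, so no value below belongs to a stage or clutch. Library depth is not known, and no replicates stand behind any value. Counts of genes are therefore given beside the same counts over all annotated genes, without a test.

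The small ribosomal subunit joins a single ribosomal RNA with a set of proteins that carry the names rps and a number. It holds the mRNA and reads its codons against tRNAs, and embryos begin life on ribosomes made in the oocyte before they make their own. In vertebrates these genes are short, strongly expressed and start transcription in a pyrimidine tract that places their mRNAs under growth control. Several of them, rps7, rps10, rps24 and rps26 among them, are mutated in human Diamond-Blackfan anaemia.

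Nearly every transcript of these genes had a chain of splice junctions that the annotation did not hold. Each assembled multi-exon transcript had a chain of its own, 523 of 523 here and 76858 of 76858 over all spliced annotated genes. It is thus no trait of these genes, but it means that the share of new chains can rise with transcripts per gene. Transcripts with a new junction chain numbered 511 of 531, or 96.2%, against 91.1% of the sense transcripts of all annotated genes. Both totals include models taken over from the annotation, so both shares depend on how many such models each set holds. A further 13 overlapped an annotated exon in another way and 7 were classed as having the annotated chain. Among those 7 are single-exon models of rps12 and rps13, which hold no junction. Of those 7, 6 were models taken over from the annotation and 1 was assembled, at rps29, which encodes a zinc-binding protein of the subunit's head. That transcript had 3 exons and 1158 bases. An assembled transcript with the annotated chain was thus present at 1 of 27 genes, and at 12.4% of all annotated genes. At rps27, which encodes a zinc-finger protein, the annotated model of 4 exons and 495 bases was the single entry, and it was not assembled. Genes with an annotated model and no assembled transcript made up 10.7% of all annotated genes.

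The other 26 genes had between 1 and 68 assembled transcripts with at least 2 exons, called isoforms here, with a median of 11.5 and quartiles of 8 and 27.75. The 7410 spliced annotated genes had a median of 6 and quartiles of 3 and 12, and the 46 large subunit protein genes had a median of 14. The spread within the small subunit was wide. Among proteins of the mRNA entry channel, the gene rps2 had 51 isoforms, rps3 had 42 and rps9 had 11, while rps23, whose protein lies at the decoding centre, had 2. At the platform, where mRNA leaves, rps14 had 28, rps3a had 10 and rps26 had 8. On the solvent side nearby, rpsa, also known as the laminin receptor precursor gene, had 28, and rps21, which encodes a small protein that bacteria lack, had the most of all with 68.

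**Figure D1:**
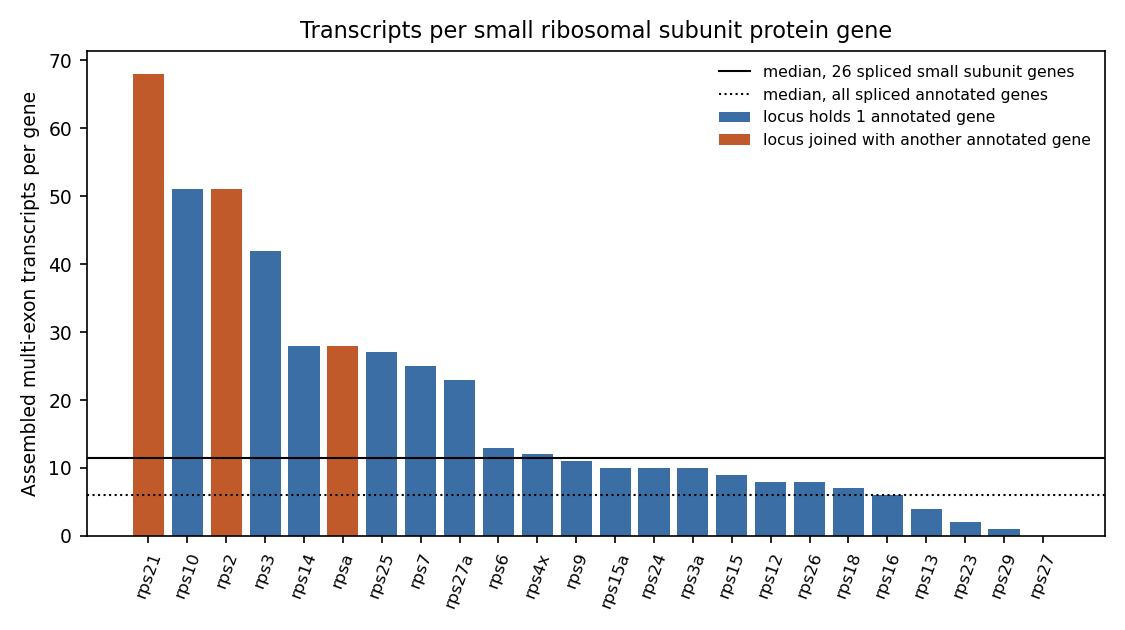
Assembled multi-exon transcripts (y axis) of each of 24 genes (x axis), coloured by whether the locus also holds another annotated gene, with the medians of the 26 spliced small subunit genes (11.5, solid line) and of all spliced annotated genes (6, dotted line). The bars run from 68 at rps21 to 0 at rps27.

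Among genes of head proteins, the rps10 gene, whose protein is ubiquitinated on stalled mammalian ribosomes, had 51 isoforms, rps25, whose protein is used by viral internal ribosome entry sites, had 27, and rps27a, which encodes a ribosomal protein fused to ubiquitin, had 23. Lower numbers among head protein genes were those of rps15 with 9, rps12 with 8, rps18 with 7, rps16 with 6 and rps29 with 1. Among genes of body proteins, the rps7 gene, whose protein binds the p53 regulator MDM2 in mammals, had 25, and rps6, whose protein is phosphorylated by S6 kinase, had 13. Lower numbers were those of rps4x with 12, rps15a and rps24 with 10 each, and rps13 with 4.

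The isoforms were short, with a median of 5 exons and 734 bases over the median values of the 26 genes, against 8 exons and 2228 bases over all spliced annotated genes. In 24 of the genes this median length lay between 407.5 bases at rps12 and 1158 bases at rps29.

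Joined loci, whose transcripts also carry the name of another annotated gene, were present at 6 of 27 genes, and at 7.84% of all annotated genes. Among them were rps2 with rpl3l, rps21 with cables2 and rpsa with rbfox2. In the RefSeq table each of these pairs has 0 protein-coding genes between its members. Counting introns held by at least 1 transcript, those in common with the other gene were 12 of 54 at rps2, 8 of 39 at rps21 and 4 of 34 at rpsa. Without these 6 genes the median isoform number was 10.

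To separate a gene's common splicing pattern from its variants, an intron was called a backbone intron when more than 50% of the transcripts that span it used it, and a variable intron otherwise. Introns held by at least 2 transcripts numbered 291 in the 26 genes. Of these, 113, or 38.8%, were backbone introns and 178 were variable. The backbone share was 69.3% over all spliced annotated genes and 48% in the large subunit genes. Variable introns were more numerous in genes with more transcripts, with a median of 7 in annotated genes with at least 10 isoforms and of 1 over all. Values are therefore also given for genes with at least 10 isoforms, a number that 17 small subunit genes and 2326 annotated genes reached. These sets still differed, with medians of 27 and 17 isoforms and of 6 and 11 exons. In these the backbone shares were 33.3% and 56.7%, and large subunit genes with at least 10 isoforms had 43.8%. A backbone intron at a gene's end can rest on few transcripts: the outermost first intron of rps21 was spanned by 5, and its longest intron by 2.

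The plot of introns by use shows this pattern for the 4 genes with the most isoforms. At rps21, on the minus strand of scaffold GL173167 from 653160 to 684660, 7 of 33 introns belonged to the backbone, and each of the other introns was used by at most 14.7% of the transcripts that span it. At rps10, on the plus strand of scaffold GL173407 from 370489 to 379251, 3 of 24 did, and a pair of its introns missed the limit at 49.0% each. At rps2 6 of 24 did, and at rps3 6 of 20. At rps14, on the minus strand of scaffold GL172914 from 169351 to 173499, 2 of 13 did. In contrast, 4 of 5 introns of rps16 were of the backbone. Most transcripts held more than 1 variable intron, which need not mean more than 1 place of departure. An added exon brings 2 introns, and at rps10 both introns of the 49.0% pair counted as variable. Of the 523 isoforms, 17 had no variable intron, 188 had 1 and 318 had 2 or more. The last number is 60.8%, against 63.6% over all spliced annotated genes. Among genes with at least 10 isoforms the shares were 64.2% and 75%.

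**Figure D2:**
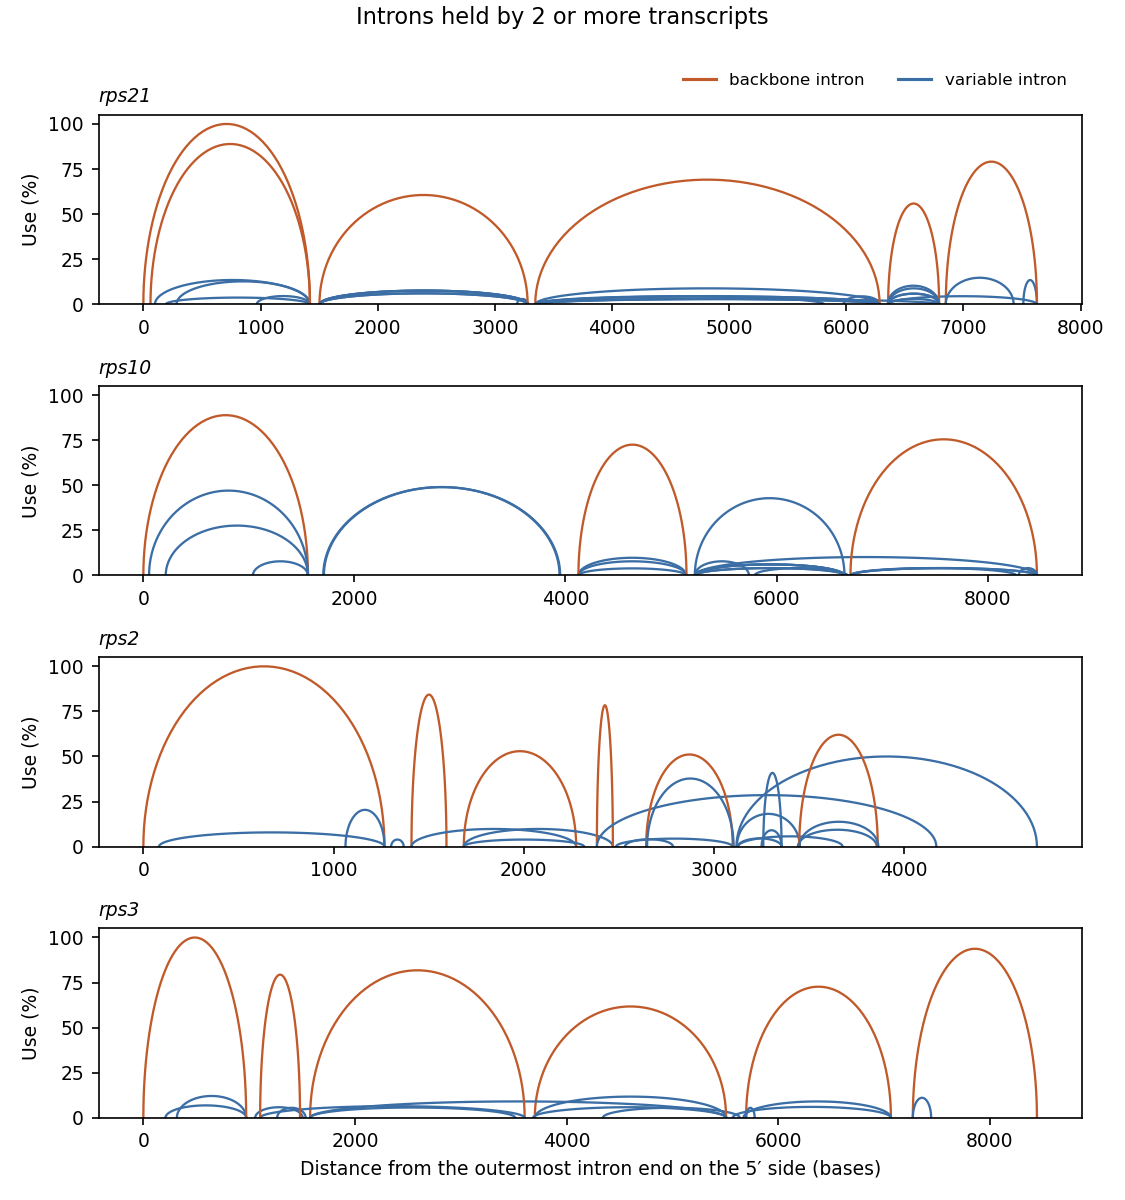
Introns held by at least 2 transcripts of rps21, rps10, rps2 and rps3, drawn as arcs from end to end against the distance in bases from the outermost intron end on the 5′ side. The height of an arc is the percentage of spanning transcripts that use the intron, red arcs are backbone introns, blue arcs are variable ones, and the rps21 intron of 24344 bases is not drawn.

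Part of the variable introns lay at the ends of the transcripts. Used solely as the first intron of a transcript were 47 of 178, or 26.4%, and solely as the last 35, or 19.7%. The other 96, or 53.9%, were neither. Over all spliced annotated genes the shares of first and last were 19.6% and 12.4%, and in the large subunit genes 32.7% and 15.2%. Among genes with at least 10 isoforms they were 27.1% and 19.3% in small subunit genes and 18.9% and 11.6% in annotated genes. Small subunit genes had fewer exons, a median of 5 against 8, and the same shares for all introns are not given.

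First exons were joined where they overlapped, and a first exon counted when at least 2 transcripts began in it. At least 2 separate first exons were present in 15 of 26 genes, or 57.7%, against 31.9% of all spliced annotated genes and 67.4% of large subunit genes. Among genes with at least 10 isoforms the numbers were closer, 13 of 17 small subunit genes, or 76.5%, and 71.4% of annotated genes. Among the genes described here the most were found at rps21 with 7, rps25 with 6, and rps3 and rps7 with 5 each. Exons that touch or nearly touch without a shared base counted as separate. At rps25 the exons from 188769 to 188826 and from 188827 to 189096 touch. Nearly touching are those of rps21 from 684289 to 684325 and from 684327 to 684387. The same holds at rps10 for 370489 to 370598 and 370604 to 370652. At rps4x it holds for its only 2, from 106044 to 106181 and from 106183 to 106509. Whether such exons have separate starts of transcription was not tested.

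At rps21, 40 of 68 transcripts began in an exon of 61 bases, from 684327 to 684387. On its upstream side an exon of 273 bases opened 5 transcripts, and on its downstream side exons of 37, 79, 61 and 90 bases opened 7, 2, 8 and 3 transcripts. The donors of these 5 exons and of the main one joined the same acceptor, all by introns that end at 682965 on the minus strand. The exon of 273 bases ends at 684388 on the minus strand and so abuts the main one, with no base between them. At rps10 no first exon was dominant: exons of 110, 49 and 94 bases opened 18, 16 and 13 of 51 transcripts, and introns from all of them ended at 372159. At rps9, whose protein lines the mRNA entry, exons of 339, 62 and 71 bases opened 4, 4 and 3 of 11 transcripts. At rps3 an exon of 270 bases opened 26 of 42 transcripts, and each of its other 4 first exons opened at most 4. At rpsa 1 exon of 193 bases opened 26 of 28 transcripts.

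The remaining first exons need more care. At rps27a the exon that opened the most transcripts, 13 of 23, overlapped an internal exon of other transcripts, and 7 transcripts began upstream of it in an exon of 246 bases. Whether such starts are starts of transcription was not tested. At rps7, 3 of the 5 first exons were 2, 3 and 4 bases long. First exons of at most 10 bases made up 13 of 72, or 18.1%, against 7.53% over all spliced annotated genes and 19.5% in large subunit genes. Among genes with at least 10 isoforms these shares were 21.3% in small subunit genes and 11.8% in annotated genes. With longer ones alone, 14 of 26 genes, or 53.8%, kept at least 2 first exons, against 28.3% of all spliced annotated genes and 56.5% of large subunit genes. Among genes with at least 10 isoforms, 12 of 17 small subunit genes did, or 70.6%, against 75.8% of large subunit genes and 63.7% of annotated genes.

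**Figure D3:**
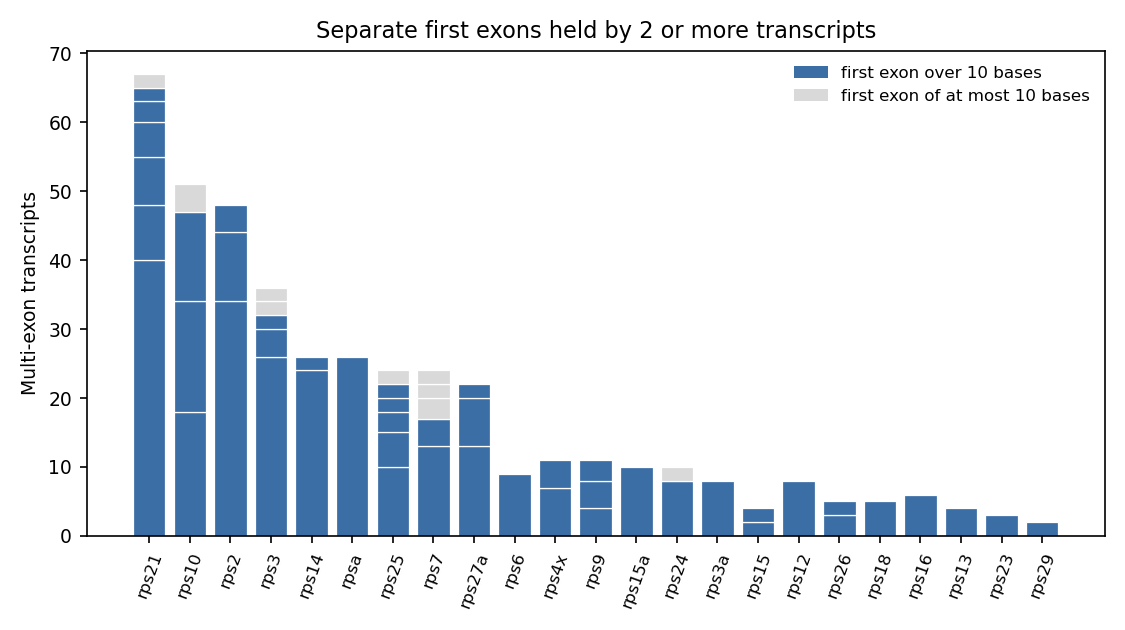
Multi-exon transcripts (y axis) of 23 spliced genes (x axis), stacked by separate first exon, each segment being 1 first exon held by at least 2 transcripts. Blue segments are exons over 10 bases and grey segments are shorter ones, and rps21 has the most segments of the genes plotted, 7.

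Spliced antisense transcripts were present at 9 of 27 small subunit genes and at 22.0% of all annotated genes. Among the genes described here the most were found at rps9 with 3 and at rps2 and rps10 with 2 each. The genes rps4x, rps7, rps12, rps15 and rps23 had 1 each. Per the labels' protocols the libraries kept the strand of the RNA.

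Among the variants counted here, choices of donor or acceptor were found in the most genes. A donor choice, meaning an acceptor joined to at least 2 donors with each intron held by at least 2 transcripts, was present in 19 of 26 genes, and in 43.8% of all spliced annotated genes. An acceptor choice was present in 16 of 26, and in 43.1%. Among genes with at least 10 isoforms a donor choice was present in 15 of 17 small subunit genes and 92.2% of annotated genes, and an acceptor choice in 13 of 17 and 91.8%. Donor choice includes that between first exons, and acceptor choice that between last exons. Both also include the joins made when an exon is skipped, so these counts overlap those of the other variants. Acceptors joined to several donors numbered 7 at rps21 and 5 at rps2, while rpsa had 6 donors joined to several acceptors.

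Many of the further sites at rps21 and rps10 lay a few bases from the main site. Counting from the most used site, 15 of 30 further sites at rps21 and 9 of 19 at rps10 were at most 6 bases away. At rps10 the introns that start at 374722 ended at 375742, 375744, 375745 or 375746, in 5, 4, 2 and 37 transcripts. Over the 26 genes 36 of 164 further sites, or 22%, were that near, against 13.7% over all spliced annotated genes. Without rps21 and rps10 the share was 10.4%.

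Some variants moved both ends of an intron by the same number of bases, so that the spliced transcript kept its length. Such co-shifted pairs, with a shift of at most 10 bases, were present in 6 of 26 genes and in 4.98% of all spliced annotated genes. Among genes with at least 10 isoforms they were present in 5 of 17 and in 14.3%. The clearest pair was at rps10, where introns of 2240 bases at 372304 to 374543 and at 372310 to 374549 were used by 25 transcripts each, a shift of 6 bases. At rps2, introns of 456 bases shifted by 5 bases were used by 23 and 17 transcripts. At rps6, introns of 176 bases shifted by 4 bases were used by 4 and 7 transcripts. The others were a pair at rps18, a pair at rps4x and 4 pairs at rps21. The rate was 30.9 pairs per 1000 introns in small subunit genes, 11.6 in large subunit genes and 5.06 over all spliced annotated genes, and 19.4 in small subunit genes without rps21. Whether the shifted introns leave the same mRNA sequence was not tested.

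Exon skipping, with at least 2 transcripts for the exon and at least 2 that join its outer neighbours directly, was present in 8 of 26 genes, or 30.8%, and in 27.3% of all spliced annotated genes. Among genes with at least 10 isoforms it was present in 7 of 17 small subunit genes, or 41.2%, in 57.6% of large subunit genes and in 67.0% of annotated genes. Counting overlapping forms as 1 exon, 20 exons were skipped, and 9 of them, or 45%, had a length divisible by 3, against 54.7% of 4008 exons over all spliced annotated genes. A length divisible by 3 leaves the reading frame intact when the exon lies in the coding part.

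In the counts of this paragraph, inclusion covers transcripts with 1 pair of flanking introns, the most frequent, so further transcripts can hold the exon. At rps2 the skipped exons had 90 and 108 bases, both divisible by 3. They were included in this way by 26 and 25 transcripts and skipped by 5 each, while the intron that leads into the exon of 90 bases was held by 43. At rpsa exons of 33 and 129 bases, also divisible by 3, were included by 10 and 11 transcripts and skipped by 3 and 4, while an exon of 119 bases was included by 15 and skipped by 9. At rps3 neither skipped exon was divisible by 3: exons of 95 and 94 bases were included by 19 and 21 transcripts and skipped by 3 and 2. At rps21 and rps10 some skipped exons were rare additions. The rps21 exon of 82 bases was included by 9 transcripts and skipped by 53, and the rps10 exon of 24 bases was included by 2 and skipped by 37. At rps9 and rps18, 1 exon each was skipped. At loci not joined with another gene, skipped exons were present in 4 of 20 genes.

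The rps24 gene, on the plus strand of scaffold GL172901 from 1330000 to 1344312, is known in humans for very short exons near its 3′ end that change the last residues of the protein. Its frog transcripts held 2 internal exons of 24 bases each, at 1338437 to 1338460 and at 1341077 to 1341100, in 2 and 3 of 8 transcripts that span them. Both lengths are divisible by 3. Neither met the rule for a skipped exon.

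Retained introns were found in few genes. An intron of at least 2 transcripts that lay wholly inside an exon of at least 2 others was present in 2 of 26 genes, or 7.69%. The share was 11.4% of all spliced annotated genes and 15.2% of large subunit genes. Among genes with at least 10 isoforms it was present in 28.8% of annotated genes, 21.2% of large subunit genes and 2 of 17 small subunit genes. Both cases were introns that few transcripts removed. At rps2 an intron of 67 bases, from 2026039 to 2026105, was removed by 2 transcripts and kept within an exon by 48. At rps7 an intron of 89 bases, from 2434370 to 2434458, was removed by 6 and kept by 16. Neither length is divisible by 3. None of the 113 backbone introns of small subunit genes lay inside an exon of 2 or more transcripts, nor of any single transcript. A count of 0 of 113 allows a share of up to 2.65%. Over all spliced annotated genes 0.323% of 64633 backbone introns were retained by at least 2 transcripts and 0.876% by at least 1, shares that 113 introns are too few to tell from 0. The 248 backbone introns of large subunit genes also gave 0.

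At the 3′ ends, at least 2 separate last exons were present in 14 of 26 genes and in 24.2% of all spliced annotated genes, and in 13 of 17 against 54.1% among genes with at least 10 isoforms. The most were found at rps2 with 7, of which 5 had at most 10 bases, and at rps3 with 4. In all, 11 of 49 last exons, or 22.4%, were that short, against 9.86% over all spliced annotated genes and 33.8% in large subunit genes. Among genes with at least 10 isoforms the shares were 26.3% in small subunit genes and 16.8% in annotated genes. At rps25 a last exon of 487 bases closed 18 transcripts and another of 95 bases closed 8.

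Some introns were far longer than the rest. An intron of over 10000 bases, here in at least 1 transcript, was present in 7 of 27 genes and in 44.2% of all annotated genes, while the introns held by at least 2 transcripts had a median of 973 bases in small subunit genes and 1018 over all. Among them were introns of 27800 bases at rps25, 24344 at rps21 and 19740 at rps3a. That of rps25 joined a first exon of 67 bases to the acceptor used by most of its other first exons, in 2 transcripts, and that of rps21 led to a last exon of 35 bases in 2 transcripts. That of rps24 measured 11840 bases and was held by 2 transcripts. Those of rps26 and rps4x measured 15902 and 12536 bases, and like that of rps3a each was held by 1 transcript.

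At the low end, rps23, on the plus strand of scaffold GL172801 from 562182 to 565782, had an annotated model of 4 exons and 488 bases and 2 assembled isoforms of 478 and 651 bases. The 3 introns held by at least 2 of these models were of the backbone, and each isoform also held 1 other intron. At rps13 the annotated model was a single exon of 83 bases on the plus strand of scaffold GL173343, while its 4 isoforms lay on the minus strand and had 3 exons each, and 1 intron was held by at least 2 of them. At rps12 the 2 annotated models were single exons of 94 bases on scaffolds GL172773 and GL177360, and its 8 isoforms lay on scaffold GL172808. In both genes these models thus share neither exon number nor place or strand with the isoforms, and no spliced annotated model of them was used here.

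**Figure D4:**
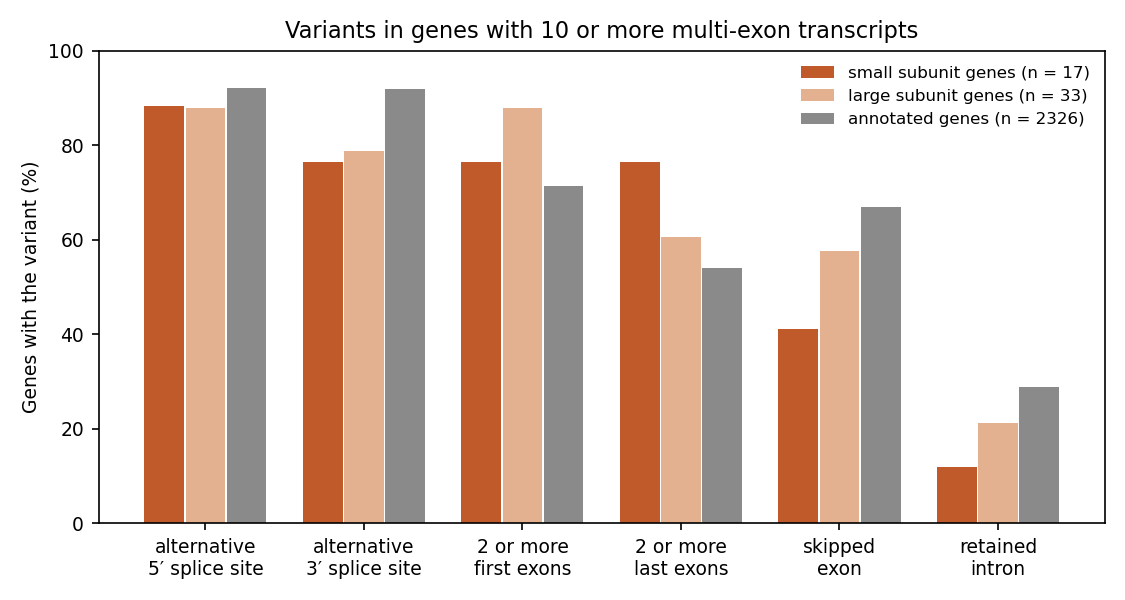
Percentage of genes with each kind of variant (y axis) among genes with at least 10 multi-exon transcripts: 17 small subunit genes, 33 large subunit genes and 2326 annotated genes. Small subunit genes stand at 41.2% for skipped exons and 11.8% for retained introns, annotated genes at 67.0% and 28.8%.

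Beyond the symbols of the rule, gnb2l1, which encodes the scaffold protein RACK1 of the small subunit's head, had 45 isoforms, 3 first exons, 2 skipped exons and 0 retained introns. Of 30 listed factors that assemble the small subunit, 20 had a model, with a median of 10 isoforms and a range from 3 to 165. Skipped exons were present in 4 of the 20, retained introns in 4 and at least 2 first exons in 9, against 27.3%, 11.4% and 31.9% of all spliced annotated genes. The highest numbers were those of fbl, the methyltransferase fibrillarin, with 165 isoforms and 20 retained introns, and of the processome protein gene wdr3 with 87 isoforms and 2 retained introns.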

How the data were processed

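Per the labels, polyadenylated RNA of 40 embryo libraries was sequenced with strand kept. Per the submitters' processing notes, Bowtie, TopHat and Cufflinks were used; their versions and settings, the genome build and the annotation are likewise not given in the sources used here. The authors deposited 1 pooled set of gene models (exon ends and class codes) and a table of its transcripts. Its column headed FPKM is a score deposited by the authors that never exceeds 1 and is no abundance; it served solely in alternatives, as a relative weight. The coverage deposited by the authors is a signal of unknown scale and enters no result. Positions are counted from 1 on the files' scaffolds.

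Computed here with Python 3.11.15 and numpy 2.4.6: variants per gene from exon ends of sense transcripts (classes =, j and o), each form held by at least 2 transcripts, annotated models included, except long introns, which counted from 1 transcript. Annotated genes with at least 1 assembled multi-exon transcript served as background. The variant caller was checked on models with planted variants. Figures were drawn with matplotlib 3.10.9. No test was run, since no sample values exist here; genes and transcripts are no replicates.

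Members and lists were chosen with earlier results of these data known. Detail was given to the 6 genes with the most isoforms, the 4 with the most first exons, retained introns or skipped exons (2 had a retained intron), genes with at most 2 isoforms, and rps14; results of some genes are not reported here. The backbone rule, splice site distances, co-shifted pairs, short terminal exons, last exons and the stratum of genes with at least 10 isoforms were chosen after seeing the data, as were genes named for them.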

Additional observations from a re-analysis of the deposited data

How the results depend on the processing

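Requiring 1 transcript per form instead of 2 raised the genes with a skipped exon from 8 to 19, those with a retained intron from 2 to 9 and those with an acceptor choice from 16 to 25. Requiring 3 lowered retained introns to 1 gene. Where solely transcripts with a weight of 1 were kept, the numbers were 5 genes for skipped exons, 0 for retained introns, 8 for at least 2 first exons, 10 for donor choice and 10 for acceptor choice, and the median isoform number was 5.5; fewer transcripts enter this setting by construction. Without the 6 genes at joined loci, skipped exons were present in 4 of 20 genes and retained introns in 1. Among assembled transcripts of the annotated and new chains alone, new chains made up 99.8%. First exons that overlap no internal exon left 14 genes with at least 2. Each other alternative stayed within 1.5 times the reported number. Introns absent from the annotated model could not be counted, since the models of most members are not among the rows used here, and promoter tracts were not analysed here. The most weighted transcript had the annotated chain at 1 gene, rps29. No paired analysis was possible because no value belongs to a library.

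The depth of the pooled libraries is unknown, and how isoform numbers follow it was not tested. Shares of genes with a variant were higher among annotated genes with at least 10 isoforms than over all, and the shares there rest on 17 members.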
